A study of Mus musculus with 6 samples.

Results

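The proteasome genes were followed across 6 mouse arrays. They were chosen by name, as every gene whose symbol begins with Psma, Psmb, Psmc, Psmd, Psme, Psmf or Psmg and whose RefSeq accession was carried by a probe. Of 57 such genes in the reference table, 50 had a probe, out of 44781 genes with a probe on the array. Of these, 48 were bright enough to be tested, averaging 8 or more in log2 intensity, among 8582 tested genes. Psma8 and Psmb11 had probes that fell below that brightness. Psme2 and the 6 pseudogenes of the prefixes were not analysed here. Of the 48 genes, 45 encode subunits, assembly chaperones, activators or the inhibitor of the proteasome. The other 3 carry only the prefix: Psmc3ip, which acts in meiotic recombination, Psme3ip1, which binds the nuclear activator Psme3, and Psme2b, a related copy of Psme2.

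The cells were TEa cells, T cells of the CD4+ lineage with a transgenic Vα2+Vβ6+ receptor and the CD45.2 marker, on a C57BL/6 background. They were transferred on day -1 into congenic CD45.1+ mice, which received the heart of a Balb/c donor on day 0, and were recovered from the spleen by cell sorting on day 6. The groups were as follows: Irf4 KO blockade, in which recipients of Irf4-/- cells were injected on days 0, 3 and 5 with 200 µg of anti-PD-L1 and 200 µg of anti-CTLA-4 (9D9), Irf4 KO IgG, in which they were injected on the same days with 400 µg of rat IgG, and WT IgG, whose recipients of wild-type cells are labelled as given rat IgG with no dose stated. The knockout was carried by the transferred cells, and the recipients' own immune cells remained in the spleen from which these were sorted. Each group had 2 arrays from independent experiments. Every p-value below sets a difference against the spread between the 2 arrays of a group, pooled over all 3 groups and shared in part across genes. The number of arrays limits the precision.

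The proteasome degrades proteins tagged with ubiquitin. Its 20S core is a barrel of alpha and beta rings, with the proteolytic sites on 3 beta subunits encoded by Psmb5, Psmb6 and Psmb7, and the 19S cap binds, unfolds and feeds substrates into it. Lymphocytes and cells exposed to interferon replace the 3 catalytic subunits by Psmb8, Psmb9 and Psmb10 to form the immunoproteasome, which favours peptides that fit MHC class I, and the activator built from Psme1 and Psme2 opens the same core. Activated T cells synthesise and turn over protein at a high rate, which makes the complex a standard part of their growth programme.

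All 9 measured CD4 T cell markers were well above background on every array. The arrays differed in dim probes: 65.8% and 75.2% of probes gave a signal well above background in Irf4 KO IgG, against 34.8% to 40.8% on the other 4 arrays. The summed intensity of 10 B cell markers was 799 and 794 in Irf4 KO blockade, 4837 and 24082 in Irf4 KO IgG and 620 and 567 in WT IgG. The summed intensity of 11 myeloid markers was 4833 and 7557 in Irf4 KO blockade, 8700 and 68815 in Irf4 KO IgG and 4642 and 5738 in WT IgG, and that of 8 erythroid and platelet markers was 11335 and 6971, 1583 and 54872, and 198 and 771 in the same order of groups. Cd79a, a defining B cell marker, read 3.15 and 4.97 in Irf4 KO blockade, 21.0 and 74.4 in Irf4 KO IgG and 15.6 and 3.85 in WT IgG. The sums are of unscaled intensities. The 75th percentile over all probes was 185 and 301 on the Irf4 KO IgG arrays, against 68.0 to 119 on the other 4. S100a9 and S100a8 gave 44805 and 15377 of the myeloid sum on Irf4 KO IgG array 2. Of the 5 myeloid markers tested in the fit below, 4 had a positive log2 fold change for Irf4 KO IgG over WT IgG. That of 1, Csf1r, was -0.01. The part of these cells in the values below was not tested. The brighter of the 2 Irf4 probes read 2071 and 1703 in Irf4 KO blockade, 2128 and 3073 in Irf4 KO IgG and 673 and 1068 in WT IgG. It was thus higher on all 4 arrays labelled as knockout. Whether the probes read the deleted stretch is not given in the sources used here, so they do not check the labels, and the groups are named below as labelled.

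Levels below are log2 intensities quantile-normalised among the 8582 bright genes, so each difference is relative to the other bright genes. For Irf4 KO IgG over WT IgG, most proteasome genes read lower in Irf4 KO IgG, by small amounts. The log2 fold change was negative for 35 of 48 genes, with a median of -0.16, beside 52.5% of all tested genes and a median of -0.02. None of the 48 passed limma's test at an adjusted p of 0.05, where 1.86% of all genes passed. At an unadjusted p of 0.05, 7 genes were lower and 1 was higher, or 14.6% and 2.08% of the 48, beside 12.8% and 10.6% of all genes. Both Irf4 KO IgG arrays lay below both WT IgG arrays for 22 genes and above them for 4, beside 29.2% and 23.1% of all genes. Psmd9, Psmb4, Psmd8 and Psmb5 had the lowest values, and Psmg2 had the highest. Fewer cells of a type and less RNA per cell cannot be told apart in such bulk samples.

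**Figure D1:**
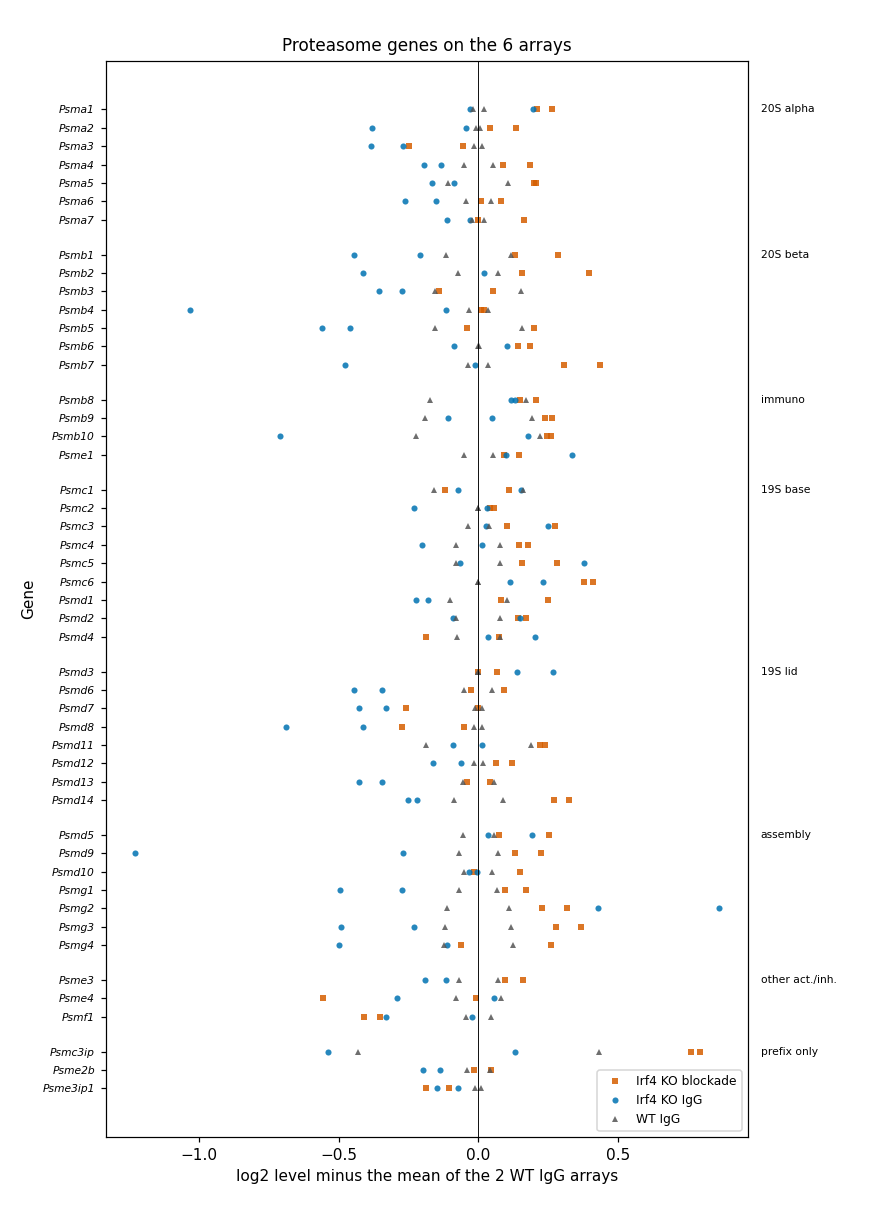
Level of each tested proteasome gene on each array (log2, relative to the mean of the 2 WT IgG arrays), by structural class, with 2 points a group. Most Irf4 KO IgG points lie left of 0 in the beta ring, lid and assembly classes, Psmd9 and Psmb4 on 1 array by over 1 log2 unit, while Psmg2 lies right of 0 on both arrays.

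Between Irf4 KO blockade and Irf4 KO IgG, most proteasome genes read higher in Irf4 KO blockade. The log2 fold change was positive for 40 of 48 genes, with a median of 0.26, beside 53.0% of all genes and a median of 0.03. Again none passed at an adjusted p of 0.05 by limma, where 0.326% of all genes passed. At an unadjusted p of 0.05, 15 genes were higher and 0 lower, or 31.2% and 0% of the 48, beside 15.5% and 13.0% of all genes. Both blockade arrays lay above both Irf4 KO IgG arrays for 35 genes and below them for 3, beside 34.0% and 28.9% of all genes. This comparison shares the Irf4 KO IgG arrays with the one before, so the opposite signs of the 2 comparisons are not separate evidence.

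Between Irf4 KO blockade and WT IgG the differences were small. The log2 fold change was positive for 38 of 48 genes, with a median of 0.13, beside 50.6% of all genes and a median of 0.00. No proteasome gene passed limma's test at an adjusted p of 0.05, beside 1.11% of all genes. At an unadjusted p of 0.05, Psmc6 and Psmd14 were higher and Psmf1 was lower, beside 9.83% and 9.39% of all genes in those directions. Both blockade arrays lay above both WT IgG arrays for 27 genes and below them for 4, beside 27.7% and 27.1% of all genes. Relative to the other bright genes, the 95% interval of the log2 fold change stayed within 2-fold either way for 46 of 48 genes here, for 42 in the comparison of Irf4 KO blockade with Irf4 KO IgG, and for 43 in that of Irf4 KO IgG with WT IgG.

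**Figure D2:**
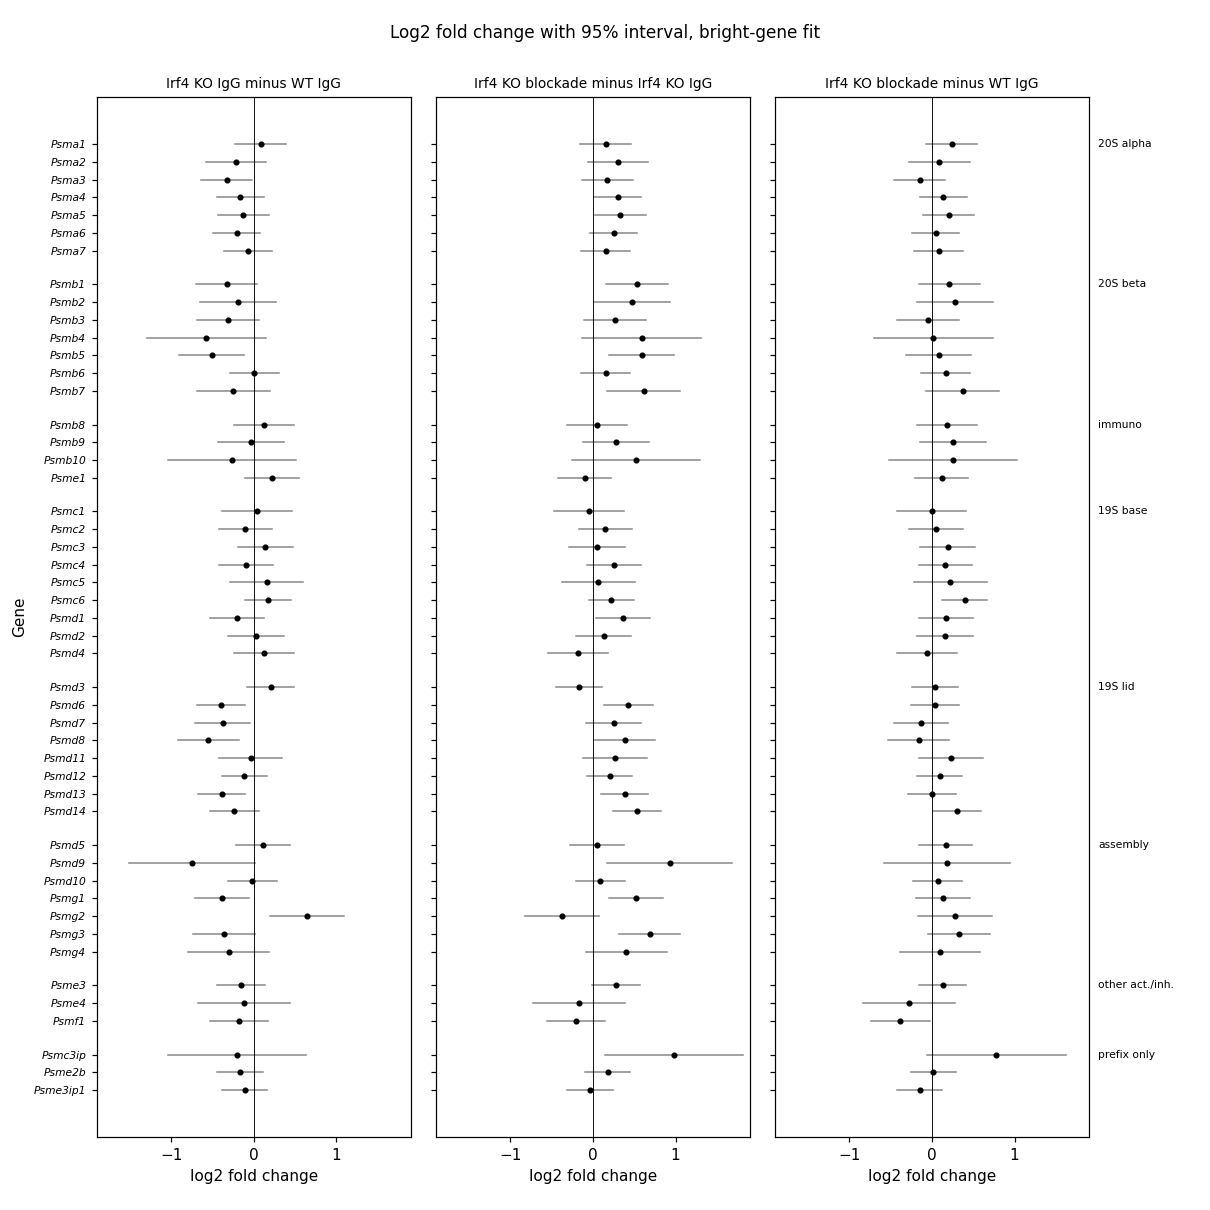
Log2 fold change (points) with its 95% interval (bars) from the limma fit of the 8582 bright genes, for the 3 comparisons, by structural class. The intervals excluded 0 in 8 of 48 genes for Irf4 KO IgG over WT IgG and 15 for Irf4 KO blockade over Irf4 KO IgG. They did so in 3 for Irf4 KO blockade over WT IgG, before any adjustment. Of all bright genes, 12.8%, 13.0% and 9.39% were lower at an unadjusted p of 0.05 by limma, in the same order. A further 10.6%, 15.5% and 9.83% were higher.

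The arrays of the Irf4 KO IgG group differed most from each other. The median absolute difference between the 2 arrays over the 48 genes was 0.09 in Irf4 KO blockade, 0.18 in Irf4 KO IgG and 0.12 in WT IgG, on the log2 scale, beside 0.14, 0.19 and 0.17 over all bright genes. Array 2 of Irf4 KO IgG lay above array 1 for 38 of 48 genes. Psmd9, Psmb4 and Psmb10 were the widest there, with a difference of up to 0.96. Without Irf4 KO IgG array 1 the median change of the 48 genes for Irf4 KO IgG over WT IgG was -0.06, beside -0.03 over all bright genes. In that setting 26 of the 48 lay below the median of all bright genes, against 34 with all arrays. Without array 2 the median of the 48 was -0.18, beside -0.02. For Irf4 KO blockade over Irf4 KO IgG the median of the 48 was 0.18 without array 1 and 0.29 without array 2, beside 0.03 and 0.02 over all bright genes.

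The 7 tested alpha subunits, Psma1 to Psma7, form the outer rings that gate entry to the core. Their median log2 fold change was -0.16 for Irf4 KO IgG over WT IgG, and 6 of 7 were negative. Psma3 (gene identifier 19167) had levels of 12.67 and 12.78 in Irf4 KO IgG and 13.07 and 13.04 in WT IgG, which do not overlap. Its log2 fold change was -0.33 (SE 0.12), with an adjusted p of 0.193 by limma. Psma1 ran the other way, with 12.29 and 12.52 in Irf4 KO IgG and 12.34 and 12.30 in WT IgG, and these overlap. Relative to Irf4 KO IgG all 7 were positive in Irf4 KO blockade, from 0.15 to 0.33 with a median of 0.25. In each of them both blockade arrays lay above both Irf4 KO IgG arrays, as they did for 34.0% of all genes. They did so for 72.9% of the 48, so this was not particular to the alpha subunits. Relative to WT IgG the median of the 7 was 0.09.

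The 7 tested constitutive beta subunits line the inner rings. Their median log2 fold change was -0.32 for Irf4 KO IgG over WT IgG, 0.54 for Irf4 KO blockade over Irf4 KO IgG and 0.17 for Irf4 KO blockade over WT IgG. Psmb5 (gene identifier 19173, chromosome 14), which carries the chymotrypsin-like site, had levels of 12.54 and 12.78 in Irf4 KO blockade, 12.12 and 12.02 in Irf4 KO IgG and 12.74 and 12.42 in WT IgG. The 2 Irf4 KO IgG arrays were below the other 4. Psmb5 had a log2 fold change of -0.51 (SE 0.16, with an adjusted p of 0.148 by limma) for Irf4 KO IgG over WT IgG and of 0.59 (SE 0.16, with an adjusted p of 0.0967 by limma) for Irf4 KO blockade over Irf4 KO IgG. Psmb7 (gene identifier 19177), the trypsin-like subunit, had 11.07 and 11.19 in Irf4 KO blockade, 10.28 and 10.74 in Irf4 KO IgG and 10.79 and 10.72 in WT IgG, with 1 Irf4 KO IgG array between the WT IgG arrays. Its log2 fold change was 0.62 (SE 0.18, with an adjusted p of 0.105 by limma) for Irf4 KO blockade over Irf4 KO IgG, the highest of the constitutive beta subunits. Psmb6 (gene identifier 19175), the caspase-like subunit, stood apart from the other catalytic subunits on its brightest probe only. That probe had 13.73 and 13.77 in Irf4 KO blockade, 13.50 and 13.69 in Irf4 KO IgG and 13.59 and 13.59 in WT IgG. Its log2 fold change for Irf4 KO IgG over WT IgG was 0.01, with a 95% interval of -0.29 to 0.30. A further bright Psmb6 probe gave -0.13 in that comparison and 0.41 for Irf4 KO blockade over Irf4 KO IgG, the same signs as Psmb5 and Psmb7.

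The non-catalytic Psmb4 (gene identifier 19172) rested on 1 array. Its levels were 14.31 and 14.29 in Irf4 KO blockade, 13.25 and 14.17 in Irf4 KO IgG and 14.32 and 14.25 in WT IgG. The first Irf4 KO IgG array was low and the other was near the rest. The log2 fold change of -0.57 for Irf4 KO IgG over WT IgG had an SE of 0.29 and a limma adjusted p of 0.301. A further bright Psmb4 probe gave a change that differed by 0.16 and had the same sign.

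The immunoproteasome genes had no common direction for Irf4 KO IgG over WT IgG. Whether they differed from the constitutive beta ring was not tested. Their median log2 fold change was 0.05 for Irf4 KO IgG over WT IgG, over the 4 measured genes, with 2 of 4 positive, and 0.17 for Irf4 KO blockade over Irf4 KO IgG. Psmb8 (gene identifier 16913, chromosome 17), which replaces Psmb5, had levels of 13.98 and 14.03 in Irf4 KO blockade, 13.95 and 13.96 in Irf4 KO IgG and 14.00 and 13.66 in WT IgG. The Irf4 KO IgG arrays lay between the WT IgG arrays, and the log2 fold change was 0.12 (95% interval -0.24 to 0.49, adjusted p by limma 0.649). Psmb9 (gene identifier 16912), which replaces Psmb6, had 14.09 and 14.06 in Irf4 KO blockade, 13.71 and 13.87 in Irf4 KO IgG and 14.02 and 13.63 in WT IgG. Its log2 fold change was -0.03 for Irf4 KO IgG over WT IgG and 0.28 for Irf4 KO blockade over Irf4 KO IgG (adjusted p by limma 0.928 and 0.294 in that order). Psmb10 (gene identifier 19171), which replaces Psmb7, had 15.07 and 15.09 in Irf4 KO blockade, 14.11 and 15.00 in Irf4 KO IgG and 15.05 and 14.60 in WT IgG. It was low on 1 Irf4 KO IgG array, and its 95% interval for Irf4 KO IgG over WT IgG, -1.04 to 0.51, was among the widest of the 48. Psme1 (gene identifier 19186, chromosome 14), the alpha chain of the interferon-inducible activator, had 14.41 and 14.46 in Irf4 KO blockade, 14.42 and 14.66 in Irf4 KO IgG and 14.37 and 14.27 in WT IgG. Both Irf4 KO IgG arrays were above both WT IgG arrays, with a log2 fold change of 0.22 (SE 0.13, with an adjusted p of 0.373 by limma). For its partner Psme2, 2 probes carry the accession of the related copy Psme2b, and which copy they read is uncertain. The brighter of them gave 15.08 and 15.02 in Irf4 KO blockade, 14.90 and 14.84 in Irf4 KO IgG and 14.99 and 15.08 in WT IgG, with a log2 fold change of -0.17 for Irf4 KO IgG over WT IgG. The further bright Psme2b probe gave the opposite sign. B cells and myeloid cells also express these genes, and the summed unscaled markers of both were higher on the Irf4 KO IgG arrays, with the limits given above. Their part in these values was not tested.

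Each exchanged pair was also compared within an array, as the log2 ratio of the replacing to the replaced subunit relative to its WT IgG mean. Psmb8 over Psmb5 was 0.19 and 0.01 in Irf4 KO blockade, 0.58 and 0.69 in Irf4 KO IgG and 0.02 and -0.02 in WT IgG. Both Irf4 KO IgG arrays were above the other 4, and the mean difference from WT IgG was 0.63. Psmb9 over Psmb6 was 0.12 and 0.05 in Irf4 KO blockade, -0.02 and -0.05 in Irf4 KO IgG and 0.19 and -0.19 in WT IgG. Both Irf4 KO blockade arrays lay above both Irf4 KO IgG arrays, and both of these groups lay between the WT IgG arrays. Psmb10 over Psmb7 was -0.06 and -0.17, -0.23 and 0.19, and 0.19 and -0.19 in the same order, and all its groups overlapped. These ratios are given without a test: a two-sided exact permutation test of 2 arrays against 2 cannot give a p below 0.333, and no model was fitted to them.

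**Figure D3:**
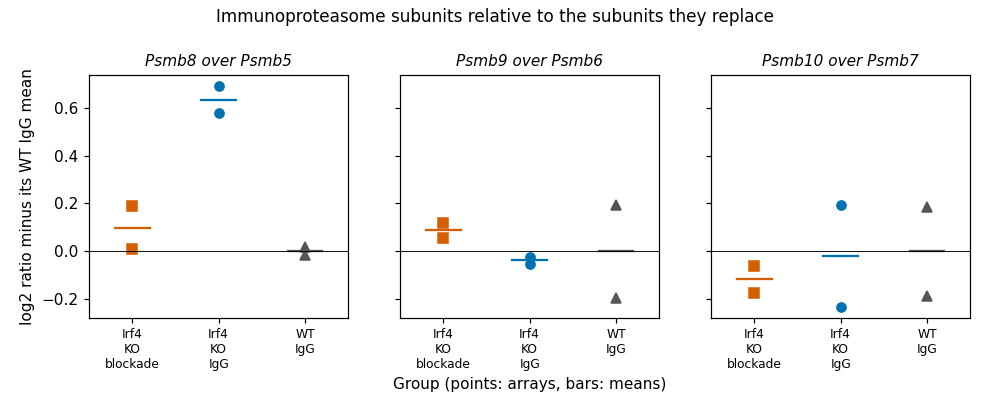
Log2 ratio of each immunoproteasome subunit to the constitutive subunit it replaces, minus its mean in WT IgG, for each array (points) with group means (bars). Psmb8 over Psmb5 is 0.58 and 0.69 in Irf4 KO IgG and at most 0.19 on the other 4. For the other pairs, both Irf4 KO groups overlap WT IgG.

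The sequences around the start sites of this pair are shown because Psmb8 and Psmb5 had different values in Irf4 KO IgG. They run from 250 bases before to 50 after the start, are given 5′ to 3′ on the gene's strand, and come from RefSeq on build GRCm38.p6. Psmb5 lies at chr14:54617946-54618245 on the minus strand, with Psmb11 as its neighbouring coding gene, and Psmb8 lies at chr17:34197945-34198244 on the plus strand, between Tap1 and Tap2, which encode the peptide transporter of the class I pathway. Capitals mark a match to TGACNNNGC, the core of the element bound by Nfe2l1 and Nfe2l2, which begins 47 bases before the Psmb5 start. The Psmb8 window holds none of the 4 motifs searched and so has no capitals.
Psmb5: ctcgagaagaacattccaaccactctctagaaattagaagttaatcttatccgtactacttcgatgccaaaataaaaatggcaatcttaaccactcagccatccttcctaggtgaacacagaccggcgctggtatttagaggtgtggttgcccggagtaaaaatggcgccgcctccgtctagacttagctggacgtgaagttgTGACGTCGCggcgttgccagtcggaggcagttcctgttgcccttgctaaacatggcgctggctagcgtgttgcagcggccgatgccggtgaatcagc
Psmb8: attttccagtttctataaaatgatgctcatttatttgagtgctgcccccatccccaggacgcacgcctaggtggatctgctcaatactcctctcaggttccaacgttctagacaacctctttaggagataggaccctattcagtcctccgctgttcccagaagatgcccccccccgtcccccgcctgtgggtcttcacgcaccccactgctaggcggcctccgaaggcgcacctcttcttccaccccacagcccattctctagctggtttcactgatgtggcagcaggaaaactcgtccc
For Psme1, at chr14:55578244-55578543 on the plus strand, capitals mark a pair of overlapping matches, read on the other strand, to GAAANNGAAA, an interferon-type element, and GGAANNGAAA, an element that Ets factors bind together with Irf4 or Irf8.
Psme1: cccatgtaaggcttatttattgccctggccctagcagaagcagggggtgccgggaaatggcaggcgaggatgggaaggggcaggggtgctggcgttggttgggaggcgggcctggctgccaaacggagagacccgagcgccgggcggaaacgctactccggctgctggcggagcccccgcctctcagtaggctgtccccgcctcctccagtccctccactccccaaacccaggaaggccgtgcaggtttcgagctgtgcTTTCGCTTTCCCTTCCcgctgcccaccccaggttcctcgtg
Windows were found for 42 of the 50 genes, and 44 windows belong to tested genes. On either strand, GAAANNGAAA was in 5 of these 44, those of Psmd4, Psmd9, Psmb3, Psmg4 and Psme1, beside 3.44% of all 32851 windows. GGAANNGAAA was in 2 of 44, those of Psmc2 and Psme1, beside 2.72% of all. TGACNNNGC was in 6 of 44, those of Psmd9, Psme4, Psmb6, Psmd12, Psmc6 and Psmb5, beside 12.4%. CCAAT, the site of the Nfy factors, was in 15 of 44, beside 37.4%. These matches are letters in a window and were not tested as sites. The 6 genes with a TGACNNNGC match went both ways for Irf4 KO IgG over WT IgG. The log2 fold change was -0.75 for Psmd9, -0.12 for Psme4, 0.01 for Psmb6 and 0.17 for Psmc6, and it was negative for Psmb5 and Psmd12.

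The base of the 19S cap, which holds the ring of ATPases (Psmc1 to Psmc6) with the scaffold subunits Psmd1 and Psmd2 and the ubiquitin receptor Psmd4, had a median near 0 for Irf4 KO IgG over WT IgG. The median log2 fold change of its 9 genes was 0.04 for Irf4 KO IgG over WT IgG, 0.13 for Irf4 KO blockade over Irf4 KO IgG and 0.16 for Irf4 KO blockade over WT IgG. Psmc6 (gene identifier 67089) had levels of 12.06 and 12.03 in Irf4 KO blockade, 11.76 and 11.88 in Irf4 KO IgG and 11.65 and 11.65 in WT IgG, so that the 3 groups did not overlap. The log2 fold change of Psmc6 for Irf4 KO blockade over WT IgG was 0.40 (SE 0.11), with an adjusted p of 0.154 by limma, the lowest of the 48 genes in that comparison. Psmd1 (gene identifier 70247) was lowest of the class in Irf4 KO IgG relative to WT IgG, with 11.38 and 11.21 in Irf4 KO blockade, 10.90 and 10.95 in Irf4 KO IgG and 11.02 and 11.23 in WT IgG. All 3 bright Psmd1 probes were negative for Irf4 KO IgG over WT IgG. For Irf4 KO blockade over WT IgG the further ones gave -0.29 and -0.08, opposite in sign to the one shown. Psmd4 (gene identifier 19185) had 13.85 and 13.58 in Irf4 KO blockade, 13.81 and 13.97 in Irf4 KO IgG and 13.70 and 13.85 in WT IgG, and its groups overlapped in all 3 comparisons. The other 6 genes had log2 fold changes from -0.10 to 0.16 for Irf4 KO IgG over WT IgG.

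The lid, which removes ubiquitin from the substrate, read lower than the base in Irf4 KO IgG. The median log2 fold change of its 8 genes was -0.31 for Irf4 KO IgG over WT IgG, 0.33 for Irf4 KO blockade over Irf4 KO IgG and 0.03 for Irf4 KO blockade over WT IgG. Whether lid and base differed was not tested. Psmd8 (gene identifier 57296), a structural subunit, had levels of 11.39 and 11.61 in Irf4 KO blockade, 11.25 and 10.98 in Irf4 KO IgG and 11.68 and 11.65 in WT IgG. Both Irf4 KO IgG arrays lay below the other 4, and the log2 fold change from WT IgG was -0.55 (SE 0.15), with an adjusted p of 0.118 by limma, the lowest of the 48 genes in that comparison. Psmd14 (gene identifier 59029), the deubiquitinating enzyme of the lid, had 11.63 and 11.57 in Irf4 KO blockade, 11.05 and 11.08 in Irf4 KO IgG and 11.39 and 11.21 in WT IgG. Its 3 groups did not overlap. Psmd14 had a log2 fold change of 0.53 (SE 0.12, with an adjusted p of 0.0768 by limma) for Irf4 KO blockade over Irf4 KO IgG and of 0.30 (SE 0.12, with an adjusted p of 0.253 by limma) for Irf4 KO blockade over WT IgG. Psmd6, Psmd7 and Psmd13 were also below both WT IgG arrays on both Irf4 KO IgG arrays, with log2 fold changes of -0.40, -0.38 and -0.39. Psmd3 (gene identifier 22123) was the exception, with 13.45 and 13.38 in Irf4 KO blockade, 13.52 and 13.65 in Irf4 KO IgG and 13.38 and 13.38 in WT IgG. It was higher on both Irf4 KO IgG arrays, with a log2 fold change of 0.20 (SE 0.11, with an adjusted p of 0.339 by limma).

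The dedicated assembly chaperones held both extremes. Psmg1 to Psmg4 help to build the alpha ring, and Psmd5, Psmd9 and Psmd10 escort parts of the base. The median log2 fold change of the 7 genes was -0.31 for Irf4 KO IgG over WT IgG and 0.41 for Irf4 KO blockade over Irf4 KO IgG. Psmd9 (gene identifier 67151) had levels of 8.95 and 8.86 in Irf4 KO blockade, 7.50 and 8.46 in Irf4 KO IgG and 8.80 and 8.66 in WT IgG. It was lower on both arrays of Irf4 KO IgG, on one of them by over 1 log2 unit. Psmd9 had a log2 fold change of -0.75 (SE 0.31, with an adjusted p of 0.218 by limma) for Irf4 KO IgG over WT IgG and of 0.93 (SE 0.31, with an adjusted p of 0.129 by limma) for Irf4 KO blockade over Irf4 KO IgG. Without Irf4 KO IgG array 2, which leaves 1 array in that group, these became -1.27 and 1.45. Its start window, at chr5:123227940-123228239 on the plus strand of GRCm38.p6 (RefSeq), is shown because it holds both an interferon-type match to GAAANNGAAA and a match to TGACNNNGC, in capitals in that order.
Psmd9: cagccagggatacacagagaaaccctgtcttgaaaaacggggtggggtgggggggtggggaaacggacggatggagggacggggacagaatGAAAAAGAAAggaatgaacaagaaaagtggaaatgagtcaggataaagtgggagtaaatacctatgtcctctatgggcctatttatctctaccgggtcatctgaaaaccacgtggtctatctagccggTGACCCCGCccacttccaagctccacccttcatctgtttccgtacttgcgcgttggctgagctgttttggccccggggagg
Psmg3 (gene identifier 66506) had 10.12 and 10.21 in Irf4 KO blockade, 9.35 and 9.61 in Irf4 KO IgG and 9.96 and 9.72 in WT IgG. Its 3 groups did not overlap, and its log2 fold change of 0.69 (SE 0.15) for Irf4 KO blockade over Irf4 KO IgG had an adjusted p of 0.0766 by limma, the lowest of the 48 genes there. Psmg2 (gene identifier 107047), the partner with which Psmg1 forms a heterodimer, was higher in Irf4 KO IgG while 5 of the 7 chaperones had negative values, with 9.93 and 9.83 in Irf4 KO blockade, 10.04 and 10.47 in Irf4 KO IgG and 9.72 and 9.50 in WT IgG. All 3 groups were apart, with Irf4 KO IgG highest. Psmg2 had a log2 fold change of 0.65 (SE 0.18, with an adjusted p of 0.125 by limma) for Irf4 KO IgG over WT IgG. Psmg1 itself (gene identifier 56088) had 11.82 and 11.75 in Irf4 KO blockade, 11.16 and 11.38 in Irf4 KO IgG and 11.72 and 11.59 in WT IgG, and both Irf4 KO IgG arrays were lowest. The log2 fold change of Psmg1 for Irf4 KO IgG over WT IgG was -0.38 (SE 0.13, with an adjusted p of 0.169 by limma).

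The remaining activators and the inhibitor had a negative median for Irf4 KO blockade over Irf4 KO IgG. On the brightest probe of each gene, no other of the 7 classes of subunits and regulators did. The medians of the 3 genes were -0.15 for Irf4 KO IgG over WT IgG, -0.16 for Irf4 KO blockade over Irf4 KO IgG and -0.28 for Irf4 KO blockade over WT IgG. Psmf1 (gene identifier 228769), which encodes the inhibitor PI31, had levels of 8.59 and 8.65 in Irf4 KO blockade, 8.67 and 8.98 in Irf4 KO IgG and 8.96 and 9.05 in WT IgG. On its brightest probe the blockade arrays were the lowest, with a log2 fold change of -0.38 (SE 0.14, with an adjusted p of 0.233 by limma) from WT IgG. A further bright Psmf1 probe gave -0.04 for Irf4 KO blockade over WT IgG and 0.08 for Irf4 KO blockade over Irf4 KO IgG. The negative class median in the latter comparison thus depends on the probe chosen. Psme4 (gene identifier 103554), an activator that caps the core without ATPases, had 9.89 and 10.44 in Irf4 KO blockade, 10.50 and 10.16 in Irf4 KO IgG and 10.37 and 10.53 in WT IgG, and all groups overlapped. Psme3 had log2 fold changes of -0.15, 0.28 and 0.13 in the 3 comparisons in the order given above.

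Of the genes that share only the prefix, Psmc3ip (gene identifier 19183) had levels of 8.60 and 8.57 in Irf4 KO blockade, 7.27 and 7.94 in Irf4 KO IgG and 7.38 and 8.24 in WT IgG. The blockade arrays were above the other 4, and the log2 fold change for Irf4 KO blockade over Irf4 KO IgG was 0.98 (SE 0.34, with an adjusted p of 0.138 by limma). The WT IgG arrays of Psmc3ip differed by 0.86 from each other. Psme3ip1 had log2 fold changes of -0.11, -0.04 and -0.15 in the 3 comparisons.

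Psmb11 and Psma8, which did not enter the fit, encode forms of the core that are known from the thymic cortex and from the testis. Psmb11 (gene identifier 73902, chromosome 14) read intensities of 3.36 and 4.33 in Irf4 KO blockade, 153 and 261 in Irf4 KO IgG and 4.59 and 4.16 in WT IgG. It cleared the background call on both arrays of Irf4 KO IgG and on none of the other 4. With each array scaled to its 75th percentile, and the dim arrays set at their lowest signal well above background, Psmb11 was at least 4.59-fold higher in Irf4 KO IgG than in WT IgG. It reached the filter on dim probes only through the Irf4 KO IgG arrays, so no test of this difference is given. Dim probes in general behaved this way: 0.517% of the 31511 probes that were dim in WT IgG cleared that call on both arrays of Irf4 KO blockade, and 38.3% did so on both of Irf4 KO IgG. Psma8 read 3.62 and 4.61 in Irf4 KO blockade, 41.9 and 16.2 in Irf4 KO IgG and 4.55 and 4.28 in WT IgG, and was well above background on 1 array.

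**Figure D4:**
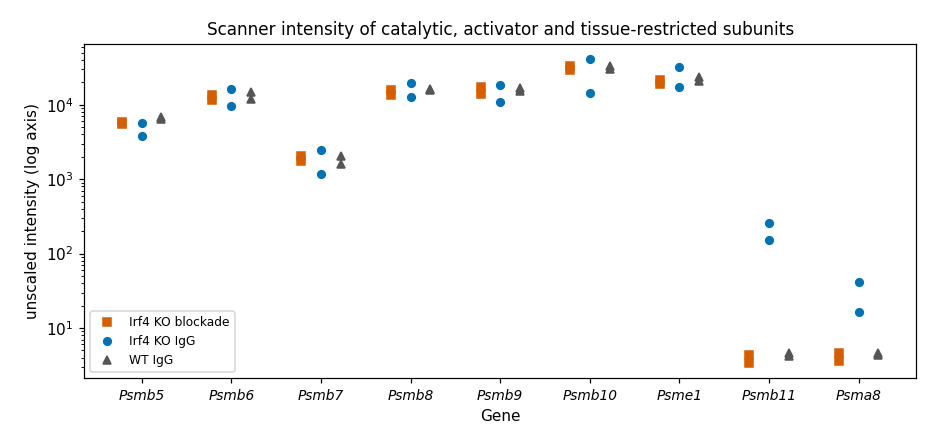
Unscaled scanner intensity (log axis) of catalytic subunits, their replacements, Psme1 and the 2 tissue-restricted subunits on each array, by group. Psmb11 and Psma8 read 3.36 to 4.61 on the Irf4 KO blockade and WT IgG arrays and 16.2 to 261 on the Irf4 KO IgG arrays, while the other subunits shown are far brighter on every array.

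The scale set between arrays decides whether the proteasome genes are called. When each array was scaled to its 75th percentile over all probes, 46 of the 48 genes were called lower in Irf4 KO IgG than in WT IgG, where 27.4% of all 28244 genes detected were called lower. Psmg2 and Psmc3ip were the exceptions. Of the 48, 45 were called higher in Irf4 KO blockade than in Irf4 KO IgG, beside 27.9% of all. The bright genes as a whole moved the same way: 73.6% of the 8582 were called lower in Irf4 KO IgG than in WT IgG on that scale, with a median of -1.05 beside -1.27 for the 48. Relative to that median the proteasome genes were lower by 0.22, and relative to the bright genes' median in the quantile-normalised fit by 0.14. On either scale 0 of 48 were called for Irf4 KO blockade over WT IgG. The quantile-normalised fit called 1.11% of all genes there. The 75th percentile scale called 0 of all 28244 genes, so its 0 of 48 carries no information on the proteasome genes.

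**Figure D5:**
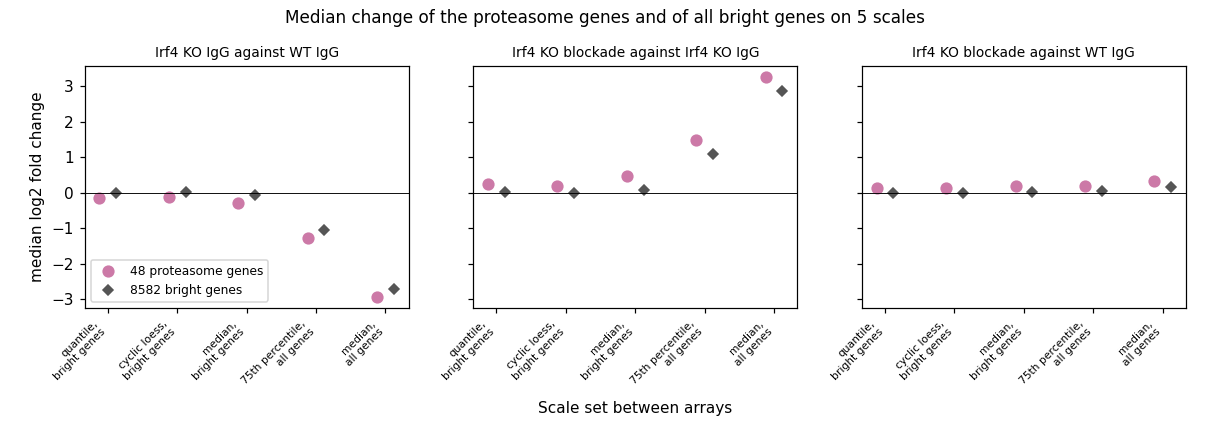
Median log2 fold change of the 48 proteasome genes (circles) and of all 8582 bright genes (diamonds) on 5 scales, for the 3 comparisons. Both medians move together when the scale uses all genes, to -1.27 and -1.05 on the 75th percentile for Irf4 KO IgG over WT IgG, and both lie between 0.00 and 0.32 on all 5 scales for Irf4 KO blockade over WT IgG.

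Genes that work with the proteasome but lack the prefix were read in the same fit. None of the 20 tested partners passed limma's adjusted threshold in any comparison. For Irf4 KO IgG over WT IgG, 4 of the 20 partners were lower and 2 higher at an unadjusted p of 0.05, beside 12.8% and 10.6% of all genes, with a median log2 fold change of -0.13. Adrm1, a ubiquitin receptor of the cap, had levels of 10.14 and 10.04 in Irf4 KO blockade, 10.50 and 10.71 in Irf4 KO IgG and 10.02 and 10.01 in WT IgG. Irf4 KO IgG was highest, with a log2 fold change of 0.59 from WT IgG (SE 0.13, with an adjusted p of 0.0791 by limma). Pomp, the maturation factor of the core, had 14.44 and 14.31 in Irf4 KO blockade, 13.99 and 14.12 in Irf4 KO IgG and 14.53 and 14.56 in WT IgG. It ran the other way, with a log2 fold change of -0.49 (SE 0.12, with an adjusted p of 0.0984 by limma). At an unadjusted p of 0.05, 4 partners were higher and 3 lower in Irf4 KO blockade than in Irf4 KO IgG, beside 15.5% and 13.0% of all genes. These counts are near the shares of all genes. Txnl1, a thioredoxin-like protein bound to the cap, had 10.78 and 10.83 in Irf4 KO blockade, 10.24 and 10.19 in Irf4 KO IgG and 10.55 and 10.42 in WT IgG, with a log2 fold change of 0.59 (SE 0.11, with an adjusted p of 0.0709 by limma) for Irf4 KO blockade over Irf4 KO IgG.

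Among 8 tested regulators of proteasome gene transcription, none passed either. Nfe2l1, the factor that raises subunit transcription when the proteasome is inhibited, had levels of 9.63 and 9.48 in Irf4 KO blockade, 9.71 and 9.76 in Irf4 KO IgG and 9.23 and 9.78 in WT IgG, with Irf4 KO IgG between the WT IgG arrays. Nfe2l2, its relative in the oxidative stress response, had 9.54 and 9.57 in Irf4 KO blockade, 9.80 and 9.74 in Irf4 KO IgG and 10.03 and 10.07 in WT IgG. Its 3 groups did not overlap, and its log2 fold change for Irf4 KO blockade over WT IgG was -0.50 (SE 0.11, with an adjusted p of 0.101 by limma). Nfyb, a subunit of the CCAAT-binding Nfy complex, went the other way, with 8.29 and 8.33 in Irf4 KO blockade, 7.96 and 8.08 in Irf4 KO IgG and 7.92 and 7.62 in WT IgG. Its 3 groups did not overlap either, and its log2 fold change for Irf4 KO blockade over WT IgG was 0.54 (SE 0.14, with an adjusted p of 0.14 by limma). Ngly1, the glycanase that processes Nfe2l1, had 8.65 and 8.69 in Irf4 KO blockade, 8.42 and 8.74 in Irf4 KO IgG and 8.96 and 9.12 in WT IgG, with a log2 fold change of -0.46 for Irf4 KO IgG over WT IgG (SE 0.15, with an adjusted p of 0.157 by limma). Stat3 had a log2 fold change of -0.52 for Irf4 KO blockade over Irf4 KO IgG (SE 0.11, with an adjusted p of 0.0768 by limma), and Syvn1, a ubiquitin ligase of the endoplasmic reticulum, had one of -0.35 (SE 0.16, with an adjusted p of 0.203 by limma).

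The 11 tested genes of class I antigen processing and its interferon control mostly had signs opposite to those of the constitutive subunits. Their median log2 fold change was 0.14 for Irf4 KO IgG over WT IgG, with 9 of 11 positive, and -0.16 for Irf4 KO blockade over Irf4 KO IgG, with 9 of 11 negative. None passed limma's adjusted threshold. Nlrc5, the activator of class I genes, averaged 9.93 ± 0.10 in Irf4 KO blockade, 10.60 ± 0.12 in Irf4 KO IgG and 10.33 ± 0.18 in WT IgG (SD, n = 2 each). The blockade arrays were the lowest, with a log2 fold change of -0.67 from Irf4 KO IgG (SE 0.15, with an adjusted p of 0.0766 by limma). Irf1, an interferon-induced transcription factor, had levels of 13.07 and 12.96 in Irf4 KO blockade, 13.08 and 12.97 in Irf4 KO IgG and 12.60 and 12.78 in WT IgG. Both knockout groups were above WT IgG, by 0.33 in Irf4 KO blockade (SE 0.13, with an adjusted p of 0.243 by limma) and by 0.34 in Irf4 KO IgG (SE 0.13, with an adjusted p of 0.189 by limma) on the log2 scale. H2-K1, a class I heavy chain, was lowest in Irf4 KO blockade, with a log2 fold change of -0.33 from Irf4 KO IgG (SE 0.12, with an adjusted p of 0.144 by limma). Tap1 and Tap2, which flank Psmb8, had log2 fold changes of 0.09 and 0.14 for Irf4 KO IgG over WT IgG and of 0.06 and -0.16 for Irf4 KO blockade over Irf4 KO IgG.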

How the data were processed

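Total RNA from sorted TEa cells was labelled with Cy3 after linear amplification and read on 6 single-colour Agilent arrays, per the labels' protocols. The values used are the deposited processed signal of each spot, a linear intensity with the background subtracted, per the file headers, and with no scaling across arrays. Feature Extraction is given as version 11.0.1.1 in those headers and as 9.1 in the submitters' processing notes. The deposited value table is an intensity divided by 1 number per array: 99.9% of its probes lay within 0.01 log2 of that offset on each array. The headers name mm9 for the array design, so no probe positions are given.

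Each array had 62976 spots, 59305 of them not controls. Spots with an outlier or manual mark were dropped, repeat spots of a probe were averaged as log2 intensity, and 55371 of 56605 probes were kept. No spot was saturated. Genes were named through RefSeq accessions, which covered 58.3% of probes. The probe with the highest mean was kept per gene, genes averaging 8 or more in log2 intensity were quantile-normalised, and the 3 groups were fitted in 1 model with limma 3.58.1 (R 4.3.3) (3 residual and 2.71 prior degrees of freedom), with Benjamini-Hochberg adjustment over 8582 genes and a threshold of 0.05. The procedure was tested on simulated data.

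The proteasome genes and the partner and marker lists were chosen with earlier results of these data known. Genes are named with values if they are immunoproteasome members or the catalytic Psmb5, Psmb6 or Psmb7, lie among the 3 lowest or 3 highest fold changes of a comparison, or have the lowest or highest fold change of their class for Irf4 KO IgG over WT IgG, and for the partner lists if their change is among the 2 largest of a comparison. A gene of the partner lists that the rule names is not reported here. Psmd14, Psmg1, Psma2, Psma4, Psmb1, Psmd6, Psmd7, Psmd13, Psme2b, Psme3, Tap1, Tap2 and Nfe2l1 are named with values outside that rule, after their values were seen. Alternatives covered scale, brightness, background correction (normexp with an offset of 50, on the median spot and local background signals that the files hold), probe choice, single arrays left out, blocks and the deposited value table. Arrays of the same number did not deviate together (correlations over bright genes of 0.03, -0.20 and 0.02 for the arrays of Irf4 KO blockade with Irf4 KO IgG, Irf4 KO blockade with WT IgG, and Irf4 KO IgG with WT IgG), so the numbers were not used as pairs.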

Additional observations from a re-analysis of the deposited data

Results flagged for a closer look

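Psmb11 and Psma8, which were too dim to enter the fit, gave signals on the Irf4 KO IgG arrays above those of the WT IgG arrays. Psmb11 had an intensity of 153 on Irf4 KO IgG array 1 and of 261 on array 2, against 4.59 and 4.16 on the WT IgG arrays. Psma8 had an intensity of 41.9 on Irf4 KO IgG array 1 and of 16.2 on array 2, against 4.55 and 4.28 on the WT IgG arrays. The scanner software called Psmb11 well above background on both of these arrays and Psma8 on 1. On the same arrays 38.3% of the probes that were dim on both WT IgG arrays were well above background.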

How the results depend on the processing

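No proteasome gene was called in any of the 3 comparisons on the bright-gene scale. The same held with cyclic loess, normexp, a brightness limit of 7 or 9, or a signal well above background on all 6 arrays. It also held with the mean over a gene's bright probes, the fit of only the 4 arrays compared, and the deposited value table. The row of the slide as a block and an intensity trend in limma's eBayes step, both added after seeing the data, called none either. Some of these settings called few genes of any kind. For Irf4 KO blockade over Irf4 KO IgG, the 4-array fit and the slide row each called 0 of 8582 genes. The 0 for proteasome genes carries no information there. For Irf4 KO IgG over WT IgG the 4-array fit called 0.07% of all genes. Median centring called 5 of 48 genes, or 10.4%, higher in Irf4 KO blockade than in Irf4 KO IgG. They were Psma2, Psma4, Psmb1, Psmd14 and Psme2b, with adjusted p from 0.0468 to 0.0498 by limma. On that scale 393 of all 8582 genes were called higher and 237 lower, or 7.34% in either direction. With no filter on dim probes, 1 of 50 genes, Psmb11, was called for Irf4 KO IgG over WT IgG, beside 16.5% of all 44781 genes. The same gene alone was called for Irf4 KO blockade over Irf4 KO IgG, beside 18.7% of all genes. Psmb11 was above background only on the Irf4 KO IgG arrays, so these calls are no support. Leaving out 1 array at a time leaves 1 array in a group, and that lone array is assumed to vary like the other groups. Only effect sizes are therefore given for these fits. Without Irf4 KO IgG array 2, Psmd9 had a log2 fold change of -1.27 for Irf4 KO IgG over WT IgG. For Irf4 KO blockade over Irf4 KO IgG it was 1.45 for Psmd9 and 1.06 for Psmb4. With the array number as a replicate block, 0, 0 and 0 proteasome genes were called, and the count over all genes was 23, 30 and 54 against 160, 28 and 95. The slide as a block was not run because all 6 arrays lay on 1 slide. Scales set over all genes changed the calls. With the 75th percentile, 47 of 49 genes were called for Irf4 KO IgG over WT IgG, beside 58.9% of all 28244 genes. For Irf4 KO blockade over Irf4 KO IgG 46 were called, beside 58.8%. With the array median 49 were called in each, beside 63.7% and 61.9% of all genes. Of the 8582 bright genes, the array median called 98.4% lower in the former comparison and 98.0% higher in the latter. Near-total calling on these scales is thus not particular to the proteasome genes. The 49 include Psmb11, which passed the detection filter only through the Irf4 KO IgG arrays, so its call is no support. Both scales shift every gene of a comparison by 1 amount, so the sign changes are not separate evidence on each gene. With the 75th percentile the log2 fold change for Irf4 KO IgG over WT IgG turned to -1.12 for Psma1, -1.29 for Psmb6, -1.21 for Psmb8, -0.95 for Psmc6, -1.10 for Psmd3, -1.19 for Psmd4, -1.11 for Psme1, -1.29 for H2-K1, -0.92 for Irf1, -0.76 for Nlrc5, -0.93 for Stat3, -0.81 for Syvn1 and -0.88 for Zfand5. With the array median it turned to -2.78 for Psma1, -2.96 for Psmb6, -2.88 for Psmb8, -2.62 for Psmc6, -2.77 for Psmd3, -2.86 for Psmd4, -2.78 for Psme1, -1.99 for Psmg2, -2.09 for Adrm1, -2.96 for H2-K1, -2.58 for Irf1, -2.17 for Nfyb, -2.43 for Nlrc5, -2.60 for Stat3, -2.48 for Syvn1 and -2.55 for Zfand5. Between Irf4 KO blockade and Irf4 KO IgG the 75th percentile turned it to 1.19 for Psmd3, 1.22 for Psmd4, 1.34 for Psme1, 0.88 for Psme3ip1, 1.19 for H2-K1, 1.30 for Irf1, 0.74 for Nfe2l2, 0.76 for Stat3, 0.79 for Syvn1 and 0.80 for Ubqln2, and the array median to 2.98 for Psmd3, 3.01 for Psmd4, 3.13 for Psme1, 2.67 for Psme3ip1, 2.67 for Psme4, 2.44 for Psmf1, 2.42 for Psmg2, 2.32 for Adrm1, 2.98 for H2-K1, 3.09 for Irf1, 2.53 for Nfe2l2, 2.17 for Nlrc5, 2.55 for Stat3, 2.57 for Syvn1, 2.59 for Ubqln2 and 2.36 for Zfand5.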

Other observations

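Genes that deliver substrates to the proteasome were read in the same fit and none passed limma's adjusted threshold. Ubqln2, a shuttle that brings ubiquitinated proteins to the cap, had levels of 10.48 and 10.46 in Irf4 KO blockade, 10.88 and 10.63 in Irf4 KO IgG and 10.91 and 11.04 in WT IgG. The blockade arrays were the lowest, with a log2 fold change of -0.50 from WT IgG (SE 0.13, adjusted p by limma 0.14). Zfand5, which stimulates the 26S complex, had 9.61 and 9.80 in Irf4 KO blockade, 10.25 and 10.01 in Irf4 KO IgG and 10.06 and 10.03 in WT IgG. The blockade arrays were again the lowest, with a log2 fold change of -0.43 from Irf4 KO IgG (SE 0.14, adjusted p by limma 0.125). Ufd1, a cofactor of the Vcp unfoldase that was named after its values were seen, had 10.88 and 11.20 in Irf4 KO blockade, 10.59 and 10.59 in Irf4 KO IgG and 11.07 and 11.03 in WT IgG, and both Irf4 KO IgG arrays were the lowest.

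Of the 17 proteasome genes with more than 1 bright probe, all bright probes had the same sign in 11 for Irf4 KO IgG over WT IgG and in 14 for Irf4 KO blockade over Irf4 KO IgG.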
